A study of Homo sapiens with 12 samples.

Results

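Fatty acid synthesis, elongation and desaturation were followed through 10 genes, chosen as the rows of the deposited count table whose symbols are ACLY, ACSS2, ACACA, FASN, SCD, FADS1, FADS2, ELOVL1, ELOVL5 and ELOVL6. These are 10 of the 57730 genes of the table, and all 10 were among the 14706 genes with enough reads to be tested. Polyadenylated RNA was sequenced from LM3 cells, a lung-metastatic derivative of MDA-MB-231, itself a human triple-negative breast cancer line, grown in medium with serum. The study asks how ACSL5, an enzyme that joins long-chain fatty acids to coenzyme A, and palmitic acid, a saturated fatty acid, bear on the spread of these cells to the lung.

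There were 4 groups of 3 libraries. The shACSL5+PA cells carried a short hairpin RNA against ACSL5 and received palmitic acid, and the shACSL5 cells carried the same knockdown without it. The shControl+PA cells carried a control hairpin and received palmitic acid, and the shControl cells carried the control hairpin alone. All 4 groups therefore share the LM3 background and a hairpin. The hairpin sequences, the number of hairpins or clones behind each line, and how much palmitic acid was given, for how long and in which vehicle, are not stated in the sources used here. Palmitic acid and its vehicle cannot be told apart for that reason. The labels do not say whether replicates came from separate cultures. The p-values therefore reflect the spread among these libraries alone, and that spread may be technical.

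Library totals ran from 18875565 to 20623983 counts in shACSL5+PA, from 16788694 to 21814751 in shACSL5, from 18014888 to 18614091 in shControl+PA and from 17119570 to 18680316 in shControl. ACSL5 itself averaged 15.3 ± 2.19 CPM in shACSL5+PA, 11.2 ± 1.16 in shACSL5, 191 ± 2.73 in shControl+PA and 143 ± 1.69 in shControl (CPM, counts scaled to library size after TMM normalization, mean ± SD, n = 3 each), in the direction of the labels. The mesenchymal markers VIM, CD44, AXL, CAV1, EGFR and ITGB1 summed to 5759.7 to 5925 CPM in shACSL5+PA, 5974 to 6026 in shACSL5, 6813 to 6912 in shControl+PA and 7359 to 7509 in shControl. A list expected to be low or absent held ESR1, PGR, ERBB2, GATA3, FOXA1, CDH1 and EPCAM. It summed to 80.1 to 86.6 CPM in shACSL5+PA, 74.1 to 82.6 in shACSL5, 89.6 to 96.2 in shControl+PA and 89.2 to 100.7 in shControl. ERBB2 made up most of it, averaging 66.6, 59.6, 75.9 and 77.6 CPM in the same order. GATA3, FOXA1 and EPCAM averaged at most 8.01 CPM in any group, and ESR1, PGR and CDH1 at most 0.294. Markers of cell types rich in fatty acid synthesis were at or near 0: adipocyte markers summed to at most 0.842 CPM in any library with ADIPOQ and LEP at 0, and hepatocyte markers to at most 0.169 CPM with TTR at 0. Immune markers summed to 45.2 to 53.8 CPM in shACSL5+PA, 47.2 to 52.8 in shACSL5, 35.7 to 36.9 in shControl+PA and 34.9 to 37.4 in shControl, with CD3E at 0 in every library, and endothelial markers to at most 1.94 CPM. The mesenchymal, low-or-absent and immune sums thus differed with the knockdown. The mesenchymal sum was also lower with palmitate in cells of either hairpin, without overlap. The mesenchymal markers did not move alike. In shACSL5 against shControl, VIM averaged 2623 against 3952 CPM and ITGB1 989 against 1264. CD44 (373.6 against 374.2) and CAV1 (526 against 528) were close, while AXL (702 against 674) and EGFR (793 against 661) were higher. The immune sum was almost all CD68, at 49.7 against 36.4 CPM. The part of these markers in the results below was not tested. In bulk RNA such as this, fewer cells of a type and less RNA per cell cannot be told apart.

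Cells build fatty acids from acetyl-CoA. ACLY makes cytosolic acetyl-CoA from citrate and ACSS2 makes it from acetate, ACACA carboxylates it to malonyl-CoA in the committed step, and FASN assembles palmitate from both. The ELOVL enzymes lengthen fatty acids, SCD puts a first double bond into saturated chains to give palmitoleate and oleate, and FADS1 and FADS2 add double bonds to polyunsaturated chains. Many of the genes, though not all, are textbook targets of SREBP-1, a membrane-bound transcription factor. It is released for activity when INSIG proteins let go of its escort SCAP, and fatty acids, polyunsaturated ones above all, lower its activity.

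The genes lie on 7 chromosomes in the GRCh38 build, with the intervals of GENCODE release 29. On chromosome 17, all on the minus strand, are ACLY (chr17:41866908-41930542), ACACA (chr17:37084988-37406818) and FASN (chr17:82078333-82098332). FADS1 (chr11:61799625-61829318, minus strand) and FADS2 (chr11:61792980-61867354, plus strand) overlap on opposite strands, and 4.79% of the exonic bases of FADS1 lie in exons of FADS2. SCD is at chr10:100347124-100364834 and ACSS2 at chr20:34872146-34927962, both on the plus strand. ELOVL1 (chr1:43363397-43368074), ELOVL5 (chr6:53267398-53349179) and ELOVL6 (chr4:110045846-110199199) are on the minus strand. No source used here gives the strand setting of the counting, and reads from bases that exons of FADS1 and FADS2 share cannot be assigned to either. Of all 50-base windows of the FADS1 exons 4.89% also occur in another gene, the largest share of the 10 genes. The shares were 4.42% for SCD, 3.08% for FADS2 and 1.98% for ACLY. They describe shared sequence and do not measure the error of the counts, which is not known.

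Promoter windows of SCD, ACLY and FADS1 are shown because SCD and ACLY had their lowest level in the same group and FADS1 moved the other way with the knockdown. Each runs from 250 bases before to 50 bases after a transcription start of RefSeq (build GRCh38.p14), and capitals mark the CCAAT box, the binding sequence of the SREBP partner NF-Y, on either strand (ATTGG on the other). For ACLY, which has a second start listed nearby, the first listed window is given. The windows are chr10:100346983-100347282 on the plus strand for SCD, chr17:41918973-41919272 on the minus strand for ACLY and chr11:61816954-61817253 on the minus strand for FADS1.
SCD: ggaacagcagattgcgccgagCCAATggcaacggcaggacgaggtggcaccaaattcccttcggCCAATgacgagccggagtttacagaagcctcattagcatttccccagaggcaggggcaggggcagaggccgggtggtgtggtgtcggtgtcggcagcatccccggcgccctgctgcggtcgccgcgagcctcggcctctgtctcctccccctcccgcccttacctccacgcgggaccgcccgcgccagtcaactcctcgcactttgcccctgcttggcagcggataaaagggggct
ACLY: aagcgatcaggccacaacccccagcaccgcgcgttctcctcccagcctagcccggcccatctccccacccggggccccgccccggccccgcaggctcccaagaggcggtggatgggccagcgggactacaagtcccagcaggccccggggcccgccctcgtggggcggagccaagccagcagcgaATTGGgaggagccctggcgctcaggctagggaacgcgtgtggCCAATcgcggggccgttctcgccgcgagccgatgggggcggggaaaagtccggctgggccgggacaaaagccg
FADS1: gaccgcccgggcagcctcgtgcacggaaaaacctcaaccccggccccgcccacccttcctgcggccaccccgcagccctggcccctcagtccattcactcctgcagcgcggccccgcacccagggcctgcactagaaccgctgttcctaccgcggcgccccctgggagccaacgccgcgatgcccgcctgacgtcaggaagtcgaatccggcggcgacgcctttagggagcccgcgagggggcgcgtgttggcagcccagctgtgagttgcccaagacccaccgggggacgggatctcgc
The SCD window held 2 CCAAT boxes, with first bases at -229 and -186 relative to the start, and the ACLY window held 2 as well, at -65 and -23. The FADS1 window held none. The box was not particular to either direction of change: it was in 2 of 3 windows of ACACA, which was higher with the knockdown, and in 1 of 2 windows of ACSS2, which was lower. Windows were found for 9 of the 10 genes, all but FASN. The sterol regulatory core TCACNCCAC was in none of their windows on either strand, and in 1.13% of all 35116 RefSeq windows of this length. CCAAT was in 34.6% of all windows, the GC box GGGCGG in 45.0% and the E box CACGTG in 7.26%, and the E box was found in the window of ELOVL5. No motif overlapped another in the windows printed. These matches describe the letters in these windows only.

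Per kilobase of the principal transcript, SCD was the most abundant of the 10 genes in all 4 groups. It stood at 201 CPM per kb in shACSL5+PA, 169 in shACSL5, 225 in shControl+PA and 237 in shControl. ACLY was second in every group, at 133, 119, 149.9 and 148 CPM per kb in the same order of groups. ACACA, ACSS2 and ELOVL6 were the lowest in all 4 groups, none above 27.0 CPM per kb. ACSS2 was the least abundant in shACSL5, at 8.52 ± 1.1 CPM per kb against 10.3 ± 0.14 for ELOVL6, while ELOVL6 was the least abundant in shControl, at 11.4 ± 0.61 against 15.8 ± 0.76 for ACSS2 (SD, n = 3). The 10 genes together took 0.340% of all counts in shACSL5+PA, 0.330% in shACSL5, 0.333% in shControl+PA and 0.357% in shControl. Within that sum SCD held 31.3%, 27.5%, 35.8% and 36.3% in the same order, and the groups did not overlap in this share except shControl+PA and shControl.

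**Figure D1:**
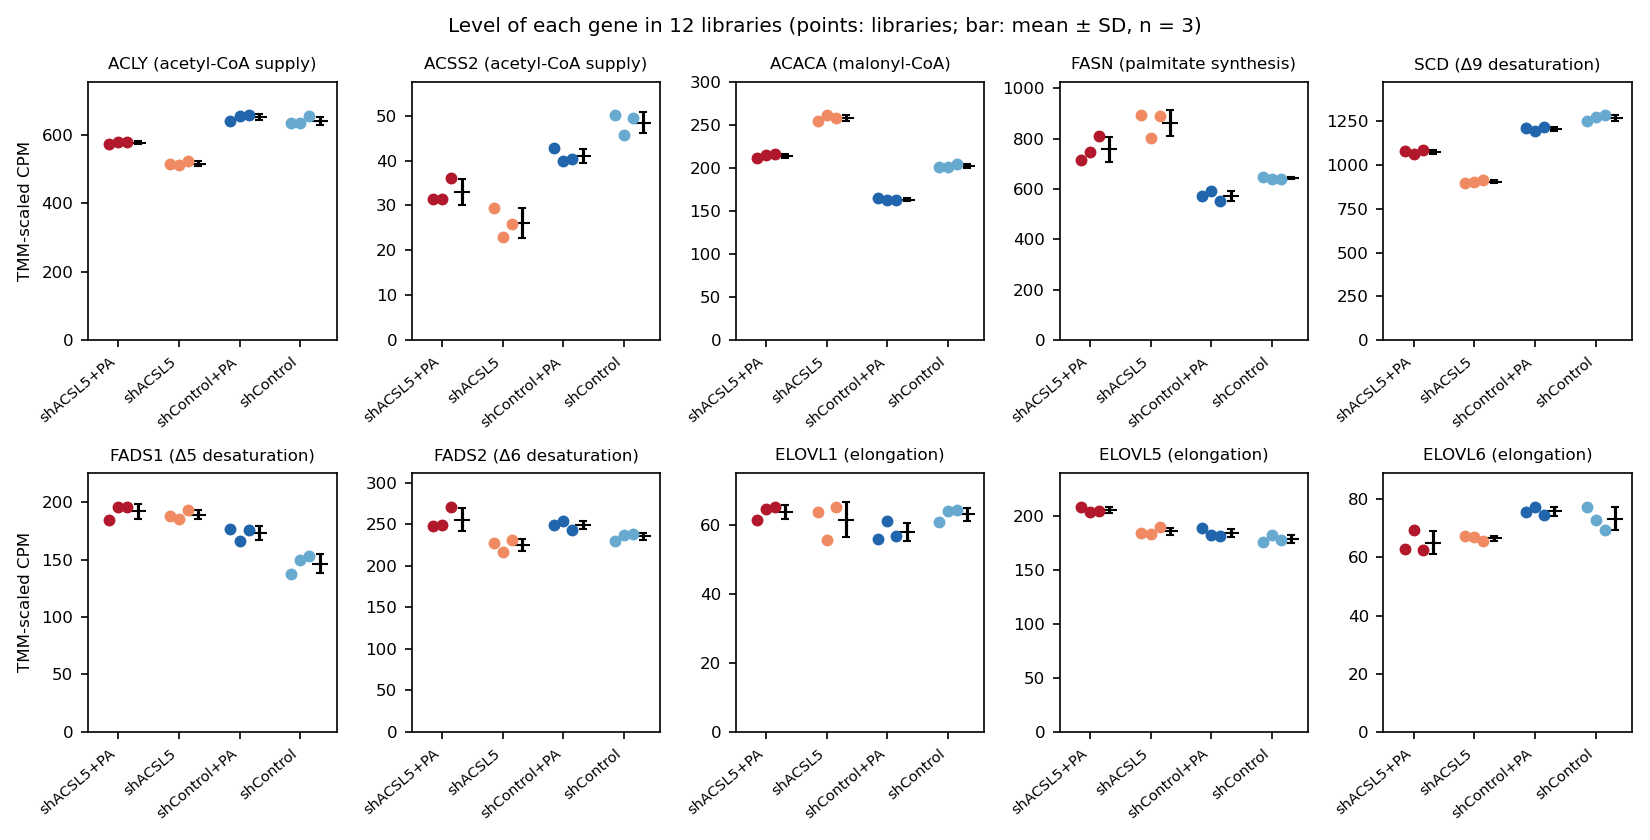
TMM-scaled CPM (vertical axes, each starting at 0) of the 10 genes in the 12 libraries, with points for libraries and bars for the mean ± SD of 3. For SCD, ACSS2 and ACACA no pair of groups overlaps, with SCD and ACSS2 lowest and ACACA highest in shACSL5.

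The knockdown without palmitate changed the first steps of the pathway in opposite directions. The genes for acetyl-CoA supply and SCD were lower in shACSL5 than in shControl, and the genes for malonyl-CoA and palmitate synthesis and FADS1 were higher. Of the 10 genes, 3 were called higher and 4 lower at an adjusted p under 0.05 (edgeR's quasi-likelihood test with Benjamini-Hochberg adjustment over all tested genes, as for every adjusted p below). Over all tested genes 29.7% were called higher and 32.6% lower, so the share of the 10 genes that changed was near the background. Their median log2 change was -0.05, against -0.02 over all genes.

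ACLY, the citrate lyase, stood at 514, 510.1 and 523 CPM in the shACSL5 libraries, against 632, 635 and 654 in shControl. The groups did not overlap, and the log2 change was -0.31 (SE 0.03, adjusted p = 2.72e-10). ACSS2, the acetate-activating enzyme, had 29.5, 23.0 and 25.9 CPM in shACSL5, against 50.1, 45.7 and 49.4 in shControl. Every shACSL5 library was below every shControl library, at a log2 change of -0.88 (SE 0.08, adjusted p = 1.15e-09), the largest in size of the 10. ACSS2 is the shallowest of these genes, with 388 to 643 counts in the shACSL5 libraries and 833 to 938 in shControl.

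ACACA, the acetyl-CoA carboxylase, had 255, 262 and 258 CPM in shACSL5, against 201, 202 and 205 in shControl. It was higher in all 3 knockdown libraries, by 0.35 on the log2 scale (SE 0.03, adjusted p = 9.71e-10). FASN, the fatty acid synthase, had 892, 800.4 and 889.6 CPM in shACSL5, against 649, 641 and 640.3 in shControl. Here too the groups stood apart, with a log2 change of 0.42 (SE 0.04, adjusted p = 4.93e-09).

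SCD, the stearoyl-CoA desaturase, had 896, 904 and 914 CPM in shACSL5, against 1251, 1276 and 1283 in shControl. Its log2 change of -0.49 (SE 0.02) had the smallest adjusted p of the 10 genes, 1.08e-14, and the libraries of a group lay close together. FADS1, the delta-5 desaturase, was higher, with 188, 186 and 193 CPM in shACSL5 and 137, 149 and 153 in shControl. The log2 change of FADS1 was 0.37 (SE 0.04, adjusted p = 7.97e-08). FADS2, the delta-6 desaturase that acts before FADS1 on the same fatty acids, had 228, 216 and 230.4 CPM in shACSL5 and 230.4, 237 and 239 in shControl. The FADS2 groups touched, at a log2 change of -0.07 (SE 0.04, adjusted p = 0.136).

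Of the 3 elongases, 1 was called with the knockdown. ELOVL6, which lengthens saturated and monounsaturated chains such as palmitate, averaged 66.6 ± 0.934 CPM in shACSL5 and 73.3 ± 3.94 in shControl (SD, n = 3 each), a log2 change of -0.14 (SE 0.05, adjusted p = 0.0232). That call was lost without shControl replicate 1 (adjusted p = 0.133), without shACSL5 replicate 3 (adjusted p = 0.0652), with DESeq2 and in a fit of these groups alone. ELOVL5, an elongase of polyunsaturated chains, and ELOVL1, an elongase of very long saturated chains, were not called, at log2 changes of 0.06 (adjusted p = 0.150) and -0.03 (adjusted p = 0.632). The lowest ELOVL1 value of all, 55.7 CPM, was in shACSL5 replicate 2, and without that library the ELOVL1 change was 0.03.

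Palmitic acid lowered both palmitate-synthesis genes in cells of either hairpin. In control cells 1 of the 10 genes was called higher and 4 lower, against 15.1% higher and 13.5% lower over all genes. Without shControl+PA replicate 2 or without shControl replicate 3, 3 of the 10 were called. The median log2 change of the 10 was -0.03, against -0.00 over all genes. When counts were scaled by library size alone, 35.9% of all calls in control cells were higher, against 52.8% with TMM scaling.

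ACACA had 165, 163 and 163 CPM in shControl+PA, against 201, 202 and 205 in shControl, a fall of 0.31 on the log2 scale (log2 change -0.31, SE 0.03, adjusted p = 1.24e-07). FASN had 574, 591 and 553 CPM in shControl+PA, against 649, 641 and 640.3 in shControl, at a log2 change of -0.17 (SE 0.04, adjusted p = 0.00319). In neither gene did the groups overlap. ACSS2 had 42.8, 39.8 and 40.4 CPM in shControl+PA, against 50.1, 45.7 and 49.4 in shControl, a log2 change of -0.24 (SE 0.07, adjusted p = 0.0192). SCD had 1212, 1193 and 1215 CPM in shControl+PA, against 1251, 1276 and 1283 in shControl, which is a log2 change of -0.07 (SE 0.02, adjusted p = 0.0136). The ACSS2 and SCD groups did not overlap, yet each call was lost without any of several single libraries. For ACSS2 the adjusted p was 0.0757 without shControl+PA replicate 2 and 0.0749 without shControl replicate 1, and it was also above the threshold without shControl+PA replicate 3 or shControl replicate 3. For SCD it was 0.0745 without shControl+PA replicate 2, and above the threshold without shControl replicate 2 or 3 and with no filter on low counts.

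FADS1 was the member that rose in control cells, with 177, 166 and 176 CPM in shControl+PA and 137, 149 and 153 in shControl. Its log2 change was 0.24 (SE 0.04, adjusted p = 0.000177), and the groups did not overlap. ACLY had 641, 654 and 656 CPM in shControl+PA and 632, 635 and 654 in shControl, and the groups overlapped (log2 change 0.02, SE 0.03, adjusted p = 0.557). FADS2 (log2 change 0.08), ELOVL1 (-0.12), ELOVL5 (0.04) and ELOVL6 (0.05) were not called either, with adjusted p between 0.120 and 0.511.

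In knockdown cells palmitic acid changed 7 of the 10 genes, 5 called higher and 2 lower. Over all genes 12.1% were called higher and 9.78% lower, so a larger share of the 10 genes was called higher than of all genes. The 10 genes were chosen with earlier results known and have many more reads than some tested genes. Nothing further is read from this share. The median log2 change was 0.10, against 0.01 over all genes. The rises were in SCD, ACSS2, ACLY, FADS2 and ELOVL5, and the falls were in ACACA and FASN. Each of these 7 calls held when any single library was left out.

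SCD had 1078, 1064 and 1087 CPM in shACSL5+PA, against 896, 904 and 914 in shACSL5. Every treated library was above every untreated one, at a log2 change of 0.25 (SE 0.02, adjusted p = 2.55e-08). ACSS2 had 31.4, 31.4 and 36.2 CPM in shACSL5+PA, against 29.5, 23.0 and 25.9 in shACSL5, and rose by 0.33 on the log2 scale (SE 0.08, adjusted p = 0.00461). ACLY had 571, 577 and 579 CPM in shACSL5+PA and 514, 510.1 and 523 in shACSL5, with a log2 change of 0.16 (SE 0.03, adjusted p = 8.14e-05). For all 3 genes the shACSL5+PA level lay between those of shACSL5 and shControl.

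FADS2 had 248, 249 and 271 CPM in shACSL5+PA and 228, 216 and 230.4 in shACSL5 (log2 change 0.19, SE 0.04, adjusted p = 0.00095). ELOVL5 had 209, 204 and 205 CPM in shACSL5+PA and 184, 184 and 189.6 in shACSL5 (log2 change 0.15, SE 0.03, adjusted p = 0.00232). Neither pair of groups overlapped, and shACSL5+PA was the group with the highest mean for both genes.

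ACACA had 212, 215 and 217 CPM in shACSL5+PA, against 255, 262 and 258 in shACSL5, at a log2 change of -0.27 (SE 0.03, adjusted p = 1.38e-06). FASN had 716, 745 and 811 CPM in shACSL5+PA and 892, 800.4 and 889.6 in shACSL5, so that the highest treated library lay above the lowest untreated one. Its log2 change was -0.18 (SE 0.04, adjusted p = 0.00192). FADS1 (log2 change 0.02, adjusted p = 0.757), ELOVL1 (0.05, adjusted p = 0.593) and ELOVL6 (-0.03, adjusted p = 0.709) were not called in knockdown cells, and the libraries of both groups overlapped for each.

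**Figure D2:**
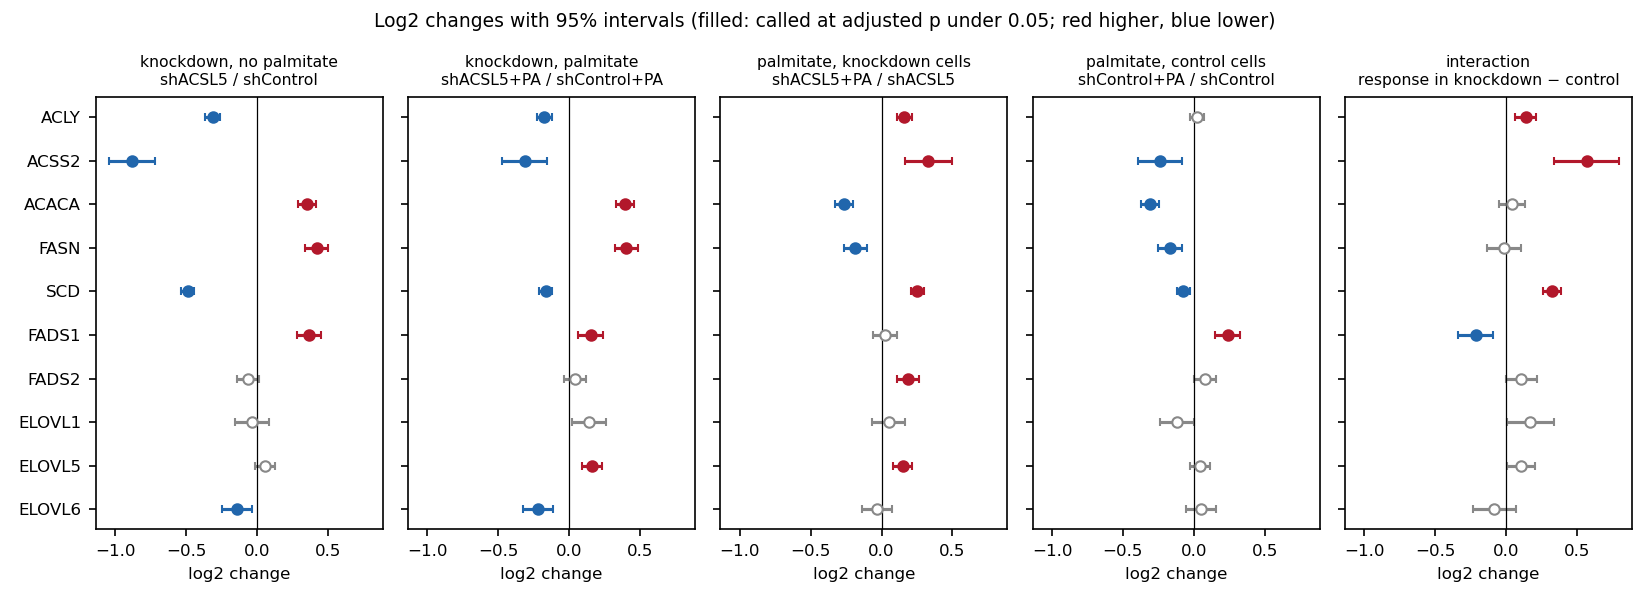
Log2 change of each gene (horizontal axes) with its 95% interval, 1 panel per comparison and the interaction at the right, filled where called at an adjusted p under 0.05 (red higher, blue lower). SCD, ACSS2 and ACLY lie left of 0 with the knockdown and right of 0 with palmitate in knockdown cells, and ACACA and FASN lie right of 0 with the knockdown and left of 0 with palmitate in cells of either hairpin.

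The palmitate response itself differed between knockdown and control cells for 4 of the 10 genes, by the interaction term (the log2 response of knockdown cells less that of control cells). It was higher in knockdown cells for 3 and lower for 1, against 7.15% and 7.39% of all genes. The median interaction of the 10 genes was 0.10, against 0.01 over all genes. With library sizes alone as the scaling, 59.9% of all interaction calls were higher, against 49.2% with TMM scaling. All comparisons share groups, so the values of the 10 genes in different comparisons are not independent of each other.

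For ACSS2 the interaction was 0.57 (SE 0.11, adjusted p = 0.00114), from responses of 0.33 in knockdown cells and -0.24 in control cells. For SCD it was 0.32 (SE 0.03, adjusted p = 2.96e-07), from 0.25 and -0.07. In ACLY it was 0.14 (SE 0.04, adjusted p = 0.0113), from 0.16 and 0.02. These 3 genes responded to palmitate more positively in knockdown than in control cells. For FADS1 the interaction was -0.22 (SE 0.06, adjusted p = 0.0155), from 0.02 in knockdown cells and 0.24 in control cells, and its adjusted p was 0.0523 without shControl replicate 1 and 0.0502 without shControl+PA replicate 1.

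For ACACA and FASN no difference in response was called. The ACACA interaction was 0.04 (SE 0.04, adjusted p = 0.592) and that of FASN -0.02 (SE 0.06, adjusted p = 0.897), with a 95% interval for FASN of -0.14 to 0.10. A difference in the FASN response as large as that of SCD lies outside this interval. FADS2 (0.11, adjusted p = 0.202), ELOVL1 (0.17, adjusted p = 0.173), ELOVL5 (0.10, adjusted p = 0.152) and ELOVL6 (-0.08, adjusted p = 0.50) were not called.

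Under palmitate the knockdown had the same direction as without it in ACLY, ACSS2, ACACA, FASN, SCD, FADS1 and ELOVL6, each called in both comparisons. Between shACSL5+PA and shControl+PA, 4 of the 10 genes were called higher and 4 lower, against 24.4% and 26.1% over all genes. Their median log2 change was 0.09, against -0.00 over all genes. ACACA was higher in shACSL5+PA (212, 215 and 217 CPM) than in shControl+PA (165, 163 and 163 CPM), by 0.39 on the log2 scale (SE 0.03, adjusted p = 5.27e-10). FASN was higher in shACSL5+PA as well (716, 745 and 811 CPM, against 574, 591 and 553 in shControl+PA), by 0.40 (SE 0.04, adjusted p = 2.21e-08). Neither gene overlapped between the groups.

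SCD (log2 change -0.16, SE 0.02, adjusted p = 1.29e-06), ACLY (-0.18, SE 0.03, adjusted p = 4.04e-06) and ACSS2 (-0.31, SE 0.08, adjusted p = 0.00154) were lower in shACSL5+PA than in shControl+PA. FADS1 was higher (184, 196 and 196 CPM in shACSL5+PA, against 177, 166 and 176 in shControl+PA), by 0.15 (SE 0.04, adjusted p = 0.00415). ELOVL5 was higher by 0.16 (SE 0.03, adjusted p = 0.000312), at 209, 204 and 205 CPM in shACSL5+PA and 189, 183 and 181 in shControl+PA. ELOVL6 was lower, at 63.0, 69.6 and 62.7 CPM in shACSL5+PA and 75.6, 77.5 and 74.5 in shControl+PA (log2 change -0.22, SE 0.05, adjusted p = 0.000951). ELOVL1 lay at the threshold (61.3, 64.6 and 65.2 CPM in shACSL5+PA, against 56.0, 60.9 and 56.9 in shControl+PA, log2 change 0.14, SE 0.06, adjusted p = 0.0501), and FADS2 was not called (0.04, adjusted p = 0.396).

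The order of the 4 group means fell into few patterns. SCD and ACSS2 were lowest in shACSL5, then shACSL5+PA, then shControl+PA, and highest in shControl, with no overlap between neighbours. ACLY was likewise lowest in shACSL5 and then in shACSL5+PA, and its highest neighbours, shControl and shControl+PA, overlapped. ACACA and FASN ran from shControl+PA, the lowest, through shControl and shACSL5+PA to shACSL5, the highest. The neighbours did not overlap for ACACA, while for FASN shACSL5+PA and shACSL5 did. FADS1 and ELOVL5 were lowest in shControl and highest in shACSL5+PA, and FADS1 overlapped between shACSL5 and shACSL5+PA. ELOVL5 overlapped between shControl and shControl+PA and between shControl+PA and shACSL5. The highest group mean was 1.85 times the lowest for ACSS2, 1.58 for ACACA, 1.5 for FASN, 1.40 for SCD, 1.31 for FADS1 and 1.26 for ACLY, and between 1.10 and 1.17 for FADS2 and the 3 elongases. With 3 libraries against 3, an exact two-sided permutation test of a single gene cannot go below p = 0.1, which every pair of groups without overlap reaches.

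The opposite moves can be read within a library from ratios of raw counts, in which library size and scaling cancel. The 8 ratios computed were chosen after the levels had been seen and are descriptions. FASN counts over SCD counts were 0.664, 0.700 and 0.746 in shACSL5+PA, 0.996, 0.885 and 0.973 in shACSL5, 0.474, 0.495 and 0.455 in shControl+PA and 0.519, 0.503 and 0.499 in shControl. The mean ratio was 1.88 times higher in shACSL5 than in shControl and 1.48 times higher in shACSL5+PA than in shControl+PA. ACACA over SCD averaged 0.200 ± 0.00268 in shACSL5+PA, 0.286 ± 0.00341 in shACSL5, 0.136 ± 0.00114 in shControl+PA and 0.160 ± 0.00149 in shControl (SD, n = 3 each). For both ratios no groups compared overlapped, and shACSL5 was the highest.

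FADS1 over SCD averaged 0.178 in shACSL5+PA, 0.209 in shACSL5, 0.143 in shControl+PA and 0.115 in shControl. With palmitate the ratio was 0.854 times its untreated value in knockdown cells and 1.24 times its untreated value in control cells. Between the paired desaturases, FADS1 over FADS2 averaged 0.752 ± 0.0340 in shACSL5+PA, 0.842 ± 0.0156 in shACSL5, 0.696 ± 0.0362 in shControl+PA and 0.623 ± 0.0241 in shControl (SD, n = 3 each). The ratio was 1.35 times higher in shACSL5 than in shControl without overlap, and 1.08 times higher in shACSL5+PA than in shControl+PA with overlap. FASN over ACACA averaged 3.53, 3.33, 3.50 and 3.18 in shACSL5+PA, shACSL5, shControl+PA and shControl, and the knockdown and control libraries overlapped with and without palmitate. ELOVL6 over ELOVL5 averaged 0.316, 0.358, 0.412 and 0.410 in those groups. ACSS2 over ACLY averaged 0.0573, 0.0506, 0.0631 and 0.0756, and ACLY over SCD 0.535, 0.570, 0.539 and 0.504.

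**Figure D3:**
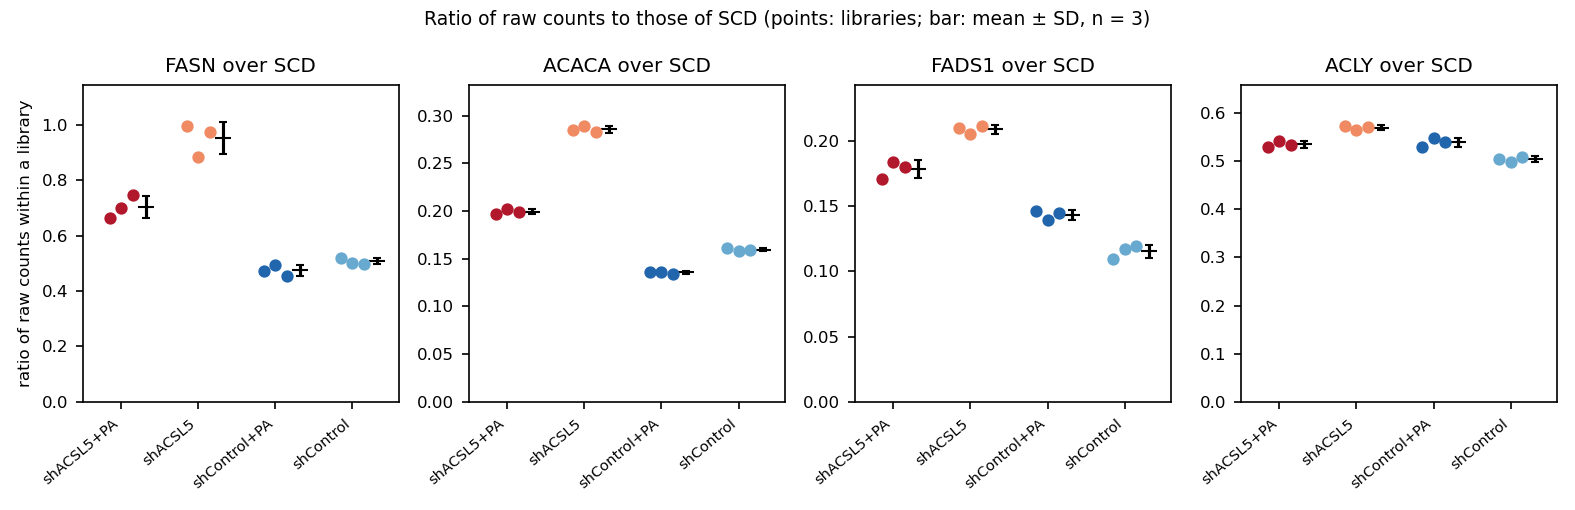
Ratios of raw counts within each library (vertical axes, from 0) of FASN, ACACA, FADS1 and ACLY to SCD, with points for libraries and bars for the mean ± SD of 3. The FASN, ACACA and FADS1 ratios are highest in shACSL5, at means of 0.952, 0.286 and 0.209, and the ACLY ratio stays between means of 0.504 and 0.570.

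Around these genes, 84 others of the pathway were listed, of which 76 were tested. Of the 76, the knockdown without palmitate called 21 higher and 26 lower, the knockdown under palmitate 20 and 17, palmitate in knockdown cells 11 and 5, palmitate in control cells 14 and 18, and the interaction 7 and 6. In the same order, 29.7% and 32.6%, 24.4% and 26.1%, 12.1% and 9.78%, 15.1% and 13.5%, and 7.15% and 7.39% of all tested genes were called, and nothing particular to the 76 genes is read from their counts. The genes with too few reads to test were ACSS1, ALDH1L1, THRSP, ELOVL2, ELOVL4, HACD4, FADS6 and MLXIPL, so that ChREBP, encoded by MLXIPL, could not be followed.

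Genes that supply precursors and NADPH, the reductant of fatty acid synthesis, had 14 tested members, of which the knockdown called 3 higher and 6 lower without palmitate and 2 higher and 5 lower under it. Over all genes 29.7% were higher and 32.6% lower without palmitate and 24.4% and 26.1% under it, and no direction is read for the list. IDH1, the cytosolic NADP-dependent isocitrate dehydrogenase, averaged 91.7 ± 3.25 CPM in shACSL5+PA, 76.1 ± 2.67 in shACSL5, 168 ± 5.28 in shControl+PA and 199 ± 4.39 in shControl (SD, n = 3 each). It was lower with the knockdown by a log2 change of -1.39 (SE 0.04, adjusted p = 1.04e-17), and of -0.87 under palmitate. ME1, the cytosolic malic enzyme, changed by -1.12 without palmitate and -0.82 under it. With palmitate in control cells 4 genes of this list were called higher and 5 lower, among them TKT at 0.31, PGD at 0.27 and ME3 at -0.45, and in knockdown cells 4 and 2, among them IDH1 at 0.27, PGD at 0.22 and ME3 at -0.31. The interaction called 2 higher and 3 lower, including IDH1 at 0.52 (SE 0.06, adjusted p = 2.85e-06), MTHFD1 at -0.29 and TKT at -0.20.

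Of 7 other malonyl-CoA and synthase-linked genes, 3 were lower with the knockdown and none higher. Over all genes 32.6% were lower and 29.7% higher, and 26.1% and 24.4% under palmitate, and no direction is read for the list. The 3 genes were ACACB, the mitochondrial carboxylase isoform, at -0.66 (SE 0.11, adjusted p = 1.89e-05), MID1IP1, which promotes carboxylase polymerisation, at -0.47, and CBR4 at -0.42. ACACB thus moved opposite to ACACA. Under palmitate 1 was higher, MLYCD, the malonyl-CoA decarboxylase, at 0.52, and 1 lower, MID1IP1 at -0.43, and ACACB was not called (-0.17, adjusted p = 0.221). The MLYCD call was lost without shControl+PA replicate 3 (adjusted p = 0.0824). The interaction called 2 genes of the list higher, against 7.15% of all genes. In control cells palmitate raised 1 and lowered 3, against 15.1% and 13.5%, and in knockdown cells it raised 1, against 12.1%. OLAH, a thioesterase of fatty acid synthase, was the gene called higher in both, on few reads (39 counts in shACSL5+PA and 5 in shACSL5, and 23 in shControl+PA and 3 in shControl, summed over 3 libraries). It could pass the filter on low counts only through the palmitate-treated libraries, where it is high, so the choice of tested genes partly fixed its direction. In control cells the call of OLAH was lost without shControl replicate 1 or 3 or shControl+PA replicate 3.

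Elongation is a cycle of 4 reactions, of which the ELOVL enzymes carry out the first. Of 7 other tested genes of the cycle, 2 were higher and 3 lower with the knockdown, and 3 were higher under palmitate. Palmitate called 1 higher and 1 lower in control cells and 1 higher in knockdown cells, with no interaction. In the same order, the shares over all genes were 29.7% and 32.6%, 24.4%, 15.1% and 13.5%, and 12.1%. No direction is read for the list. TECR, the reductase of the last step, was higher with the knockdown by 0.26 without palmitate (SE 0.04, adjusted p = 2.30e-06) and by 0.23 under it. HSD17B12, the ketoacyl reductase, was higher with the knockdown by 0.14 and 0.15, and with palmitate by 0.20 in knockdown and 0.19 in control cells. ELOVL7 and ELOVL3 were lower with the knockdown, at log2 changes of -0.49 and -1.82, and ELOVL3 rested on 26 counts in shACSL5 and 87 in shControl summed over 3 libraries.

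Of 6 other desaturases and their electron donors, 2 were higher and 1 lower with the knockdown, both without and with palmitate. Over all genes 29.7% were higher and 32.6% lower without palmitate and 24.4% and 26.1% under it, and no direction is read for the list. SCD5, the second stearoyl-CoA desaturase gene, averaged 39.2 ± 0.763 CPM in shACSL5+PA, 41.0 ± 2.06 in shACSL5, 27.4 ± 1.53 in shControl+PA and 33.7 ± 2.07 in shControl (SD, n = 3 each). It was higher with the knockdown by 0.28 (SE 0.06, adjusted p = 0.00065) and by 0.52 under palmitate, the opposite direction to SCD. CYB5R3, the cytochrome b5 reductase that feeds electrons to desaturases, was higher by 0.46 and 0.31, and CYB5A, its cytochrome b5 partner, lower by log2 changes of -0.63 and -0.35. FADS3 was not called in either (0.12, adjusted p = 0.171, and 0.18, adjusted p = 0.0581). Palmitate lowered 2 genes of the list in control cells, CYB5A at -0.35 and SCD5 at -0.30, and 1 in knockdown cells, CYB5R3 at -0.15. Over all genes 13.5% were lower with palmitate in control cells and 9.78% in knockdown cells, and the interaction called 7.15% higher. The CYB5R3 call was lost without shACSL5+PA replicate 1 or 2 or shACSL5 replicate 1. The interaction called 1 higher, CYB5A at 0.28 (adjusted p = 0.0426), which was called in 7 of 18 alternatives.

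Among 19 tested regulators of the SREBP, LXR and ChREBP systems, 7 were higher and 8 lower with the knockdown, and 5 higher and 6 lower under palmitate. The shares over all genes were 29.7% and 32.6%, and 24.4% and 26.1% under palmitate, and no direction is read for the list. SREBF1, which encodes SREBP-1, averaged 54.0 ± 6.31 CPM in shACSL5+PA, 65.7 ± 3.58 in shACSL5, 65.1 ± 0.507 in shControl+PA and 83.5 ± 4.77 in shControl (SD, n = 3 each). It was lower with the knockdown (log2 change -0.35, SE 0.06, adjusted p = 5.91e-05), with the knockdown under palmitate (-0.27), with palmitate in knockdown cells (-0.29) and with palmitate in control cells (-0.36), with no interaction called (0.07, adjusted p = 0.662). ACACA and FASN were thus higher with the knockdown while SREBF1 was lower, and all 3 were lower with palmitate in cells of either hairpin. SREBF2 was not called with the knockdown (-0.03, adjusted p = 0.365).

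INSIG1, a sterol-regulated gene whose protein retains SCAP, averaged 95.01 ± 0.726 CPM in shACSL5+PA, 88.1 ± 3.41 in shACSL5, 90.1 ± 4.05 in shControl+PA and 127 ± 4.52 in shControl (SD, n = 3 each). It was lower with the knockdown by a log2 change of -0.53 (SE 0.04, adjusted p = 3.53e-10) and with palmitate in control cells by -0.50 (SE 0.04, adjusted p = 1.42e-08). In knockdown cells its palmitate response was 0.11 (adjusted p = 0.081), and the interaction of 0.61 (SE 0.06, adjusted p = 7.59e-07) had the same sign as those of SCD, ACSS2 and ACLY. INSIG2, its paralog, was lower with the knockdown by -1.28 without palmitate and -0.997 under it. NR1H2, the liver X receptor beta gene, averaged 85.5 ± 4.46 CPM in shACSL5+PA, 90.7 ± 3.62 in shACSL5, 50.9 ± 1.63 in shControl+PA and 39.1 ± 1.89 in shControl (SD, n = 3 each). That is 1.21 higher on the log2 scale with the knockdown (SE 0.05, adjusted p = 1.05e-14) and 0.75 under palmitate. USF2, an E box factor, was 0.81 higher with the knockdown without palmitate. Palmitate called 4 of the list higher and 3 lower in control cells, 1 and 1 in knockdown cells, and the interaction 1 and 2. In the same order, 15.1% and 13.5%, 12.1% and 9.78%, and 7.15% and 7.39% of all genes were called.

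AMPK is the kinase that inactivates the carboxylase protein, and this list also holds ligase and peptidase genes of lipid enzyme turnover. Of its 14 genes, 4 were higher and 5 lower with the knockdown, 5 and 4 under palmitate, 3 and 1 with palmitate in knockdown cells, 1 and 4 with palmitate in control cells, and 1 and 1 by the interaction. In the same order, 29.7% and 32.6%, 24.4% and 26.1%, 12.1% and 9.78%, 15.1% and 13.5%, and 7.15% and 7.39% of all genes were called. No direction is read for the list. PRKAB2, a beta subunit of AMPK, was lower with the knockdown by log2 changes of -1.78 (SE 0.07, adjusted p = 3.37e-15) without palmitate and -0.995 under it, with an interaction of 0.79. PRKAA2, a catalytic subunit, was lower with the knockdown at -0.78 without palmitate. STK11, the upstream kinase LKB1, was 0.35 higher with the knockdown under palmitate, averaging 161 CPM in shACSL5+PA and 126 in shControl+PA. Its mean was also higher with the knockdown without palmitate, at 171 CPM in shACSL5 and 127 in shControl. The mean of STK11 was thus not higher with palmitate in cells of either hairpin. RNF145, a ubiquitin ligase of the sterol response, fell with palmitate, at -0.60 in knockdown cells and -0.42 in control cells.

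Mitochondrial fatty acid synthesis is a separate pathway that makes the precursor of lipoic acid. Its list had 9 tested genes, and none of these was called lower in any comparison. CBR4, counted above with the synthase-linked genes, is outside this list. It was called lower with the knockdown (-0.42) and with palmitate in control cells (-0.28), with an interaction of 0.42. The counts that follow are for the 9 listed genes. With the knockdown 3 were higher, with the knockdown under palmitate 2, with palmitate in knockdown cells 1 and in control cells 3, and no interaction was called. Over all genes 29.7%, 24.4%, 12.1% and 15.1% were called higher in these comparisons, and counts this small over 9 genes say nothing particular to the list. MCAT, its malonyl transferase, was higher by 0.77 with the knockdown (SE 0.11, adjusted p = 2.25e-06) and 0.44 under palmitate, and NDUFAB1, its acyl carrier protein, by 0.33 and 0.32. LIAS, the lipoic acid synthase, was called with the knockdown at 0.36 (adjusted p = 0.0400), but not without shACSL5 replicate 1 or 2 or shControl replicate 1 or 3.

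**Figure D4:**
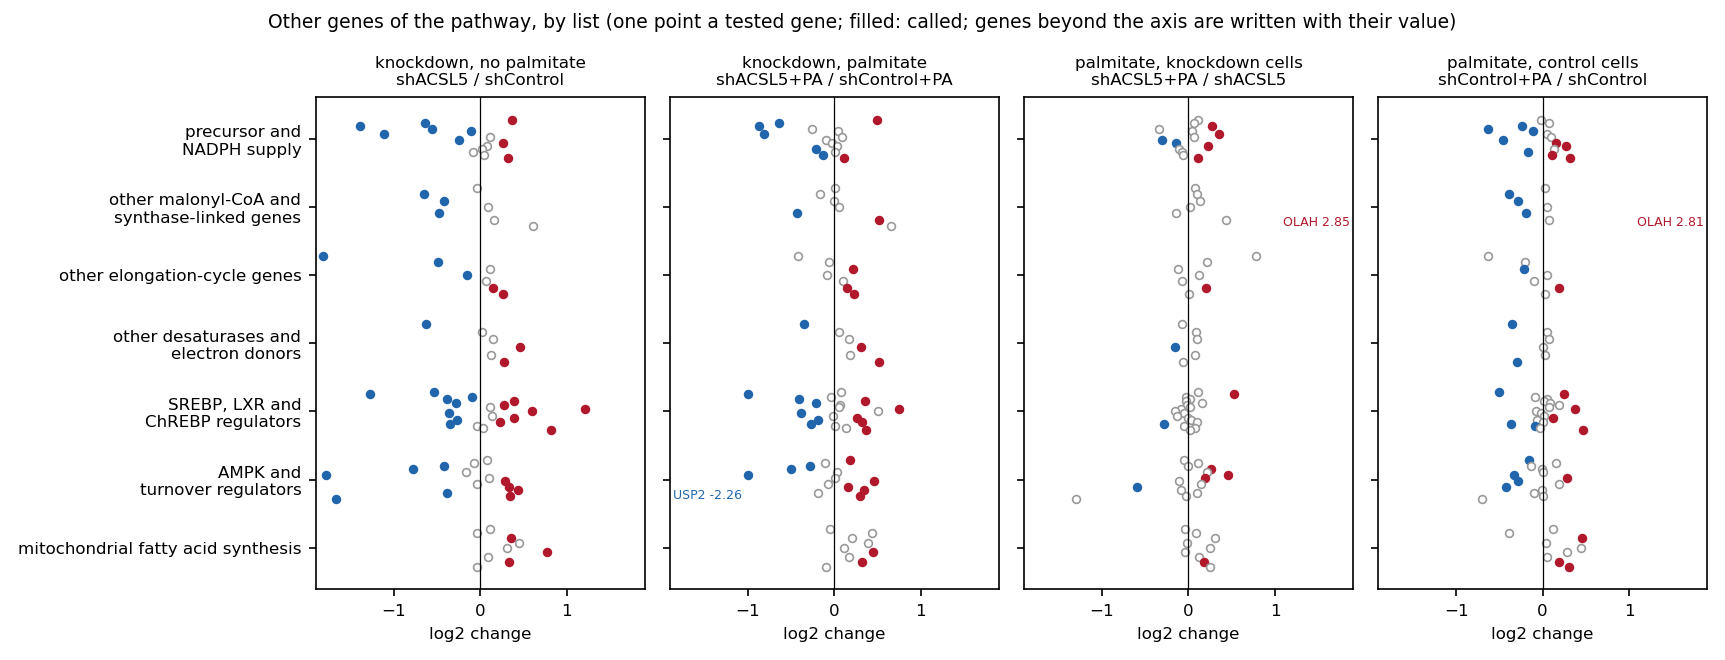
Log2 change (horizontal axes) of each tested gene of the 7 other pathway lists, 1 panel per comparison, filled where called (red higher, blue lower). Called genes of the regulator lists lie on both sides of 0 in each panel, those of the mitochondrial list lie to its right, and the fitted values of OLAH, which rest on few reads, lie beyond the axis at 2.85 with palmitate in knockdown cells and 2.81 in control cells.

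The genes with the most similar pattern were found by Pearson correlation of log2 TMM-scaled CPM over the 12 libraries, among tested genes of at least 5 CPM on average. The 12 points form 4 groups and share their libraries and depth, so r mostly reflects the 4 group means. For SCD these genes were STAU2 (r = 0.991), TBCE (0.989) and ELMO2 (0.988), and for ACLY they were LMX1B, TUBB2A and TDRKH (0.992 to 0.993). ACSS2 was most like IGSF8 (0.988), ACACA like DKK1 (0.995), FASN like CAVIN1 (0.987) and FADS1 like SHC1 (0.982). For the genes that varied least the best matches were lower, LRPAP1 for FADS2 (0.949), COL4A2 for ELOVL5 (0.960), CENPF for ELOVL6 (0.963) and PIM2 for ELOVL1 (0.938). None of these best matches is one of the 10 genes.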

How the data were processed

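For each of 12 libraries the authors deposited a column of raw counts of reads per gene, without normalization. The submitters' processing notes name the GRCh38 build, featureCounts, HISAT2 2.1.0 and fastp 0.22.0. No source used here gives the annotation release or strand setting. Samples were grouped by their titles. The table's identifier of ACACA is an older one, so ACACA was matched by symbol.

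Genes were kept with filterByExpr (14706 of 57730) and scaled with TMM factors. A model with a coefficient per group took in the whole set of 12 libraries, and edgeR 4.0.16 (R 4.3.3) tested each contrast by quasi-likelihood. P-values were adjusted over all tested genes by Benjamini and Hochberg's method, and calls were made under 0.05. The procedure was tested on simulated counts. SE is the absolute log2 change divided by the square root of F. The common dispersion was 0.00203 with 8 residual degrees of freedom. Replicates of a group were not duplicates of each other. Shared 50-base windows and transcript lengths come from GENCODE 29.

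The members, the 7 further lists and the tests were chosen with earlier results of these data known. From each further list, up to 3 called genes with the smallest p were named per comparison, plus SREBF1, SREBF2, INSIG1, SCD5, FADS3, ACACB and HSD17B12, and levels of some were added after they were seen. Not all are described, and some that count in the totals are not reported here. Alternatives were DESeq2 1.42.0 (size factors, Wald test), library sizes alone, limma-voom 3.58.1, no low-count filter, a replicate block, 2-group fits and leaving out each library.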

Additional observations from a re-analysis of the deposited data

Results flagged for a closer look

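The palmitate response differed between knockdown and control cells, by the interaction test, for 4 of the 10 genes. The difference (log2 response of knockdown cells less that of control cells) was 0.57 for ACSS2. For SCD it was 0.32. For ACLY it was 0.14, from a response of 0.16 in knockdown cells and 0.02 in control cells. For FADS1 it was -0.22, with an adjusted p of 0.0155, and the call was lost without shControl+PA replicate 1 or shControl replicate 1. The other 3 calls held under every alternative.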

How the results depend on the processing

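The 31 called results of the 10 genes were recomputed under 585 alternatives in all, of which 571 kept the direction and the call, 14 kept the direction and lost the call, and 0 reversed. 27 of the 31 kept the call throughout. The others were ACSS2 with palmitate in control cells (adjusted p 0.00396 to 0.0757 over its alternatives), ELOVL6 with the knockdown (0.133 without shControl replicate 1, 0.0645 by DESeq2, 0.0600 in a fit of the 2 groups), FADS1 in the interaction and SCD with palmitate in control cells (0.0893 with no low-count filter). ELOVL1 with the knockdown under palmitate was called in 9 of 19 alternatives. The number of the 10 genes called with palmitate in control cells was 3 to 5 when a library was left out, with 3 without shControl replicate 3 or without shControl+PA replicate 2. Counts over all genes stayed within 1.5 times of those reported.

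Results that changed sign were all uncalled. With a library left out, the ranges of the log2 change were -0.0742 to 0.0293 for ELOVL1 and the knockdown, -0.00378 to 0.063 for FADS2 and -0.0111 to 0.0271 for SREBF2 with the knockdown under palmitate, and -0.0124 to 0.091 for ELOVL1 with palmitate in knockdown cells. For FADS3 with palmitate in control cells they ran from -0.014 to 0.0937. For the interaction they were -0.068 to 0.0227 for FASN, -0.0108 to 0.158 for SREBF1, -0.0159 to 0.155 for FADS3, -0.0181 to 0.0295 for HSD17B12 and -0.0811 to 0.119 for ACSL5. With library sizes alone, palmitate in control cells gave -0.0259 for ACLY, -0.0042 for ELOVL5 and -0.0255 for FADS3, and the FASN interaction was 0.0106. The HSD17B12 interaction was -0.00623 with DESeq2 size factors and -0.0064 with the DESeq2 Wald test. The causes were not tested.

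The labels do not say whether libraries with the same replicate number share a culture or a batch. Deviations from group means correlated by -0.06 to 0.09 over 18 same-numbered pairs and by -0.09 to 0.08 over 36 others, and 6 of 12 libraries correlated best with their own number. With a replicate block, 9197 genes were called with the knockdown, against 9164 without the block, and 7489 against 7432 with the knockdown under palmitate. The counts were 3363 against 3216 with palmitate in knockdown cells, 4302 against 4217 in control cells and 2261 against 2139 in the interaction. The numbers of the 10 genes called did not change. Depth limits ACSS2 most, the shallowest of the 10 genes.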
